A study of Arabidopsis thaliana with 6 samples.

Results

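The ERF, MYB and bHLH genes are 3 large families of plant transcription factors, and 75 of the 5330 genes in the authors' deposited tables belong to them by their descriptions. Members were the rows whose description names an ethylene-responsive transcription factor, a dehydration-responsive element-binding protein, a MYB transcription factor or myb domain, or a bHLH. A fixed list of genes was left out, which removed 3 matching rows (MYB90, MYB12 and GL3). The members comprised 32 ERF genes, 17 MYB genes and 26 bHLH genes. Family genes that the tables describe in other words, such as FIT, ERF5 or MYB112, are not members and appear below only beside members of their pathway.

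RNA was sequenced from whole 14-day-old seedlings of Arabidopsis thaliana, of the wild type Col-0 and a line labelled epl1a epl1b double mutant, with 3 libraries per genotype from 3 independent experiments. Both groups grew at 22 °C on Murashige and Skoog medium with 1% sucrose in days of 16 h light and 8 h dark. Both had the same cold treatment (stratification) beforehand, and both were sampled 8 h after dawn. EPL1A and EPL1B encode Enhancer of Polycomb, a subunit of the NuA4 histone H4 acetyltransferase, and the series title asks how this complex acts on transcription in the nucleus and the plastid. The tables hold only genes past thresholds set by the authors, with reads per library. Levels below are normalised reads, which are reads divided by a scaling factor for each library relative to Col-0 replicate 1, and are given in the order of replicates 1, 2 and 3.

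EPL1A had 360, 378.1 and 363.6 normalised reads in Col-0 and 128.1, 121.5 and 123.9 in the other genotype. EPL1B went against its label, with 743, 761.6 and 653.9 normalised reads in Col-0 and 17029, 16995 and 17128 in the line labelled as its mutant. A single count per gene cannot tell which exons the reads cover, and the positions of the alleles are not analysed here. The libraries are therefore called epl1ab-labelled, and all directions compare labels. Of 12 seed marker genes 11 were listed, all higher, with summed levels of 314, 229.9 and 32.9 in Col-0 against 788.6, 122934 and 194418 in the epl1ab-labelled libraries. Replicates 2 and 3 of the epl1ab-labelled group thus stand apart from replicate 1 in seed transcripts, and values with replicate 1 as the only library of its group are given below where they matter. Of the flower markers 5 of 6 were listed, all higher (599.9 to 859.4 against 118.3 to 132), as were 2 of 8 root markers. Lower were 2 of 6 leaf mesophyll markers and 1 of 6 vascular markers, and none of 5 guard cell markers was listed. Whole seedlings are a mixture of tissues, so fewer cells of a type and less RNA per cell cannot be told apart.

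ERF proteins carry an AP2 domain, and most bind the GCC box or the related dehydration-responsive element. They act downstream of ethylene, jasmonate, low oxygen, cold and drought, and some carry a repression motif. MYB proteins of the R2R3 type bind with paired MYB repeats and are known for the control of phenylpropanoids, lignin, glucosinolates, suberin and cell identity. The bHLH proteins dimerise and bind E-box sequences, of which the G-box is one form. They act in iron uptake, jasmonate and light responses, root hair growth and stomatal development.

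Of the 75 members, 62 were listed higher and 13 lower in the epl1ab-labelled libraries. By family, 30 of 32 ERF genes, 16 of 17 MYB genes and 16 of 26 bHLH genes were listed higher. The share listed higher was 82.7% of the members, against 66.1% of all listed genes. It was 93.8% for ERF, 94.1% for MYB and 61.5% for bHLH genes. The tables were selected on this same contrast, so these shares are descriptions and carry no test. The edgeR quasi-likelihood test over all listed genes that passed its filter on low counts included 65 members, of which 54 were called higher and 11 lower at a Benjamini-Hochberg adjusted p under 0.05. In the same fit 63.1% of 4773 genes were called higher and 36.9% lower, or 100% in all, so a call adds nothing to being listed. The other 10 members had too few reads for the filter. The calls were 27 higher and 1 lower for ERF, 12 and 1 for MYB, and 15 and 9 for bHLH. With size factors estimated from the listed genes themselves, which shift every log2 fold change by about -1.11, the calls of members became 25 higher and 12 lower. TMM factors shift it by -0.47 and gave 49 higher and 12 lower. These shifts apply to all listed genes, and the shares called over all genes in these fits are not given here. The lower counts can therefore not be read as a trait of the members. The members whose sign changed were ERF105, RAP2-10, BHLH126 and BHLH61, at -0.07 to -0.10 with the size factors, and TMM factors changed no sign among members.

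By the authors' deposited tables, the median log2 fold change was 1.77 for the members listed higher, against 1.94 for all genes listed higher, and -1.31 for the members listed lower, against -1.45. Past a 4-fold change lay 21 of the 62 members listed higher (33.9%, against 47.9% of all genes listed higher) and 6 of the 13 listed lower (46.2%, against 23.5%). The members span -6.21 for BHLH28 to 5.97 for MYB21. The authors' cut at 1 on this scale has BHLH61 (1.01), BHLH126 (1.03), RAP2-10 (1.03) and BHLH122 (-1.07) just inside it, and genes outside it are not analysed here. The groups did not overlap in 73 of 75 members, or 97.3%, against 98.5% of all listed genes, and ERF025 and AT2G22750 were the exceptions. The median Col-0 level was 40.5 normalised reads for the members listed higher, against 30.4 for all genes listed higher, and 137 for the members listed lower, against 1440.

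**Figure D1:**
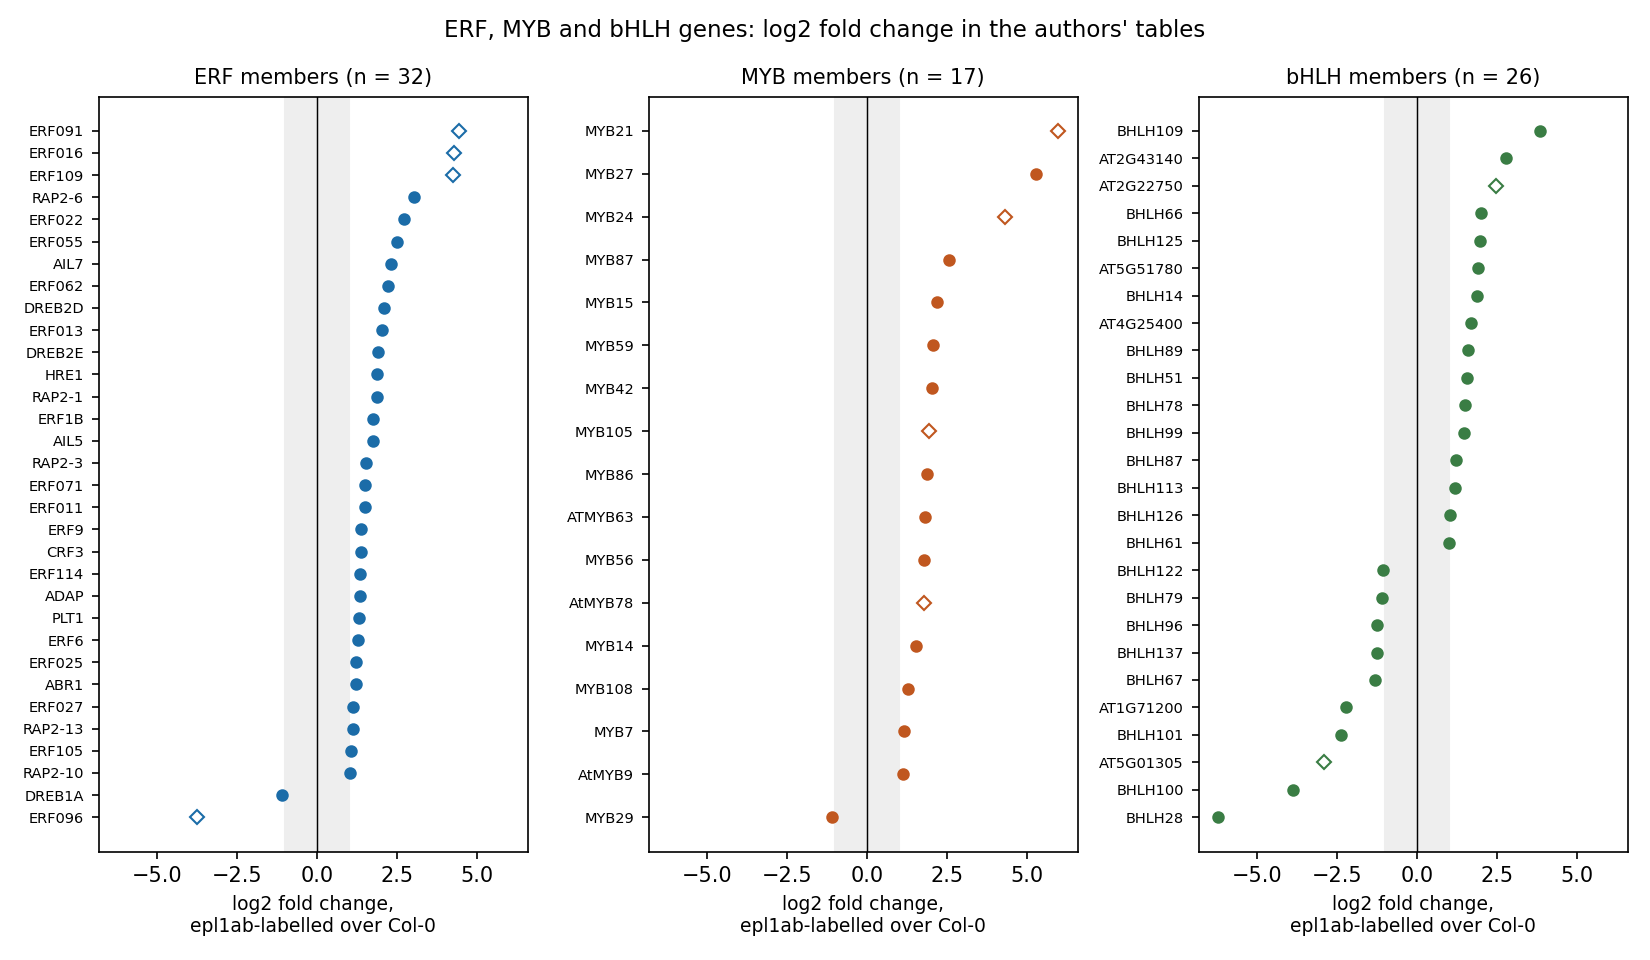
Log2 fold change of epl1ab-labelled over Col-0 in the authors' deposited tables for each ERF, MYB and bHLH member (n = 3 libraries per group). Filled circles are members in the edgeR fit, open diamonds are members with too few reads for it, and the grey band marks changes smaller than 1, where genes are not listed. ERF genes run from -3.76 to 4.42, with 2 of 32 below 0, MYB genes from -1.10 to 5.97, with 1 of 17 below 0, and bHLH genes from -6.21 to 3.84, with 10 of 26 below 0. With size factors from the listed genes, ERF105, RAP2-10, BHLH126 and BHLH61 fall to between -0.07 and -0.10.

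Reads in all members together made up 0.183% to 0.219% of the reads in listed genes in Col-0 and 0.800% to 0.861% in the epl1ab-labelled libraries. Both parts of this share differed between the groups. Unscaled reads in members were 19287 to 22387 in Col-0 and 60264 to 74242 in the epl1ab-labelled libraries. Those in all listed genes were 9265086 to 10938542 and 7355421 to 8625707, so the share overstates the rise of the members. One ERF gene, RAP2-3, held 42.3% to 50.2% of the members' reads in Col-0 and 51.9% to 53.3% in the epl1ab-labelled libraries. Per kilobase of its longest annotated transcript, RAP2-3 had 8096 normalised reads in Col-0 and 23260 in the epl1ab-labelled group, and the next member by this measure, MYB59, had 1012 and 4249. The median member had 32.4 and 76.5 normalised reads per kilobase. BHLH79, BHLH122 and MYB29, which were lower, were among the 6 members highest in Col-0 on this scale, at 855, 794 and 585.

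RAP2-3 belongs to group VII of the ERF family, whose proteins are stabilised when oxygen is low and switch on fermentation genes. The listed genes held 3 of the 5 group VII members, RAP2-3, HRE1 and ERF071 (also named HRE2), all higher; the other 2 are not analysed here. RAP2-3 had 10519, 8756 and 12446 normalised reads in Col-0 and 27345, 31528 and 32260 in the epl1ab-labelled libraries. Every epl1ab-labelled library lay above every Col-0 library. Errors after ± are SEs of the log2 fold change from the fit, with n = 3 per group throughout. The gene rose 2.87-fold, or 1.52 ± 0.14 on the log2 scale (edgeR adjusted p = 3.35e-05).

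HRE1, which is induced by low oxygen and prolongs the response, had 83, 97.8 and 117.1 normalised reads in Col-0 and 302.1, 405.1 and 387.4 in the epl1ab-labelled libraries. These ranges did not overlap, and the gene rose 3.68-fold (1.88 ± 0.19 on the log2 scale; edgeR adjusted p = 4.35e-05). HRE1 overlaps an annotated gene on the opposite strand, and whether counting used strand is unknown here, so reads of both strands cannot be told apart. ERF071 was far less abundant, with 8, 3.22 and 18.3 normalised reads in Col-0 against 34.6, 19.3 and 29.3. Its lowest epl1ab-labelled library was barely above its highest Col-0 library. The log2 fold change of ERF071 was 1.53 ± 0.52 (edgeR adjusted p = 0.0209). Its call was lost without Col-0 replicate 1 (adjusted p = 0.0912), Col-0 replicate 2 (0.0613) or epl1ab-labelled replicate 3 (0.05), and the change was 2.27 without Col-0 replicate 3.

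The regions before these 3 genes are shown because the genes share a family group and a direction. Each is the 250 bases before the annotated gene start in RefSeq TAIR10.1, on the strand of the gene, with E-box letters (CANNTG) in capitals. RAP2-3 is at chr3:5705291-5705540 (plus strand), HRE1 at chr1:27241446-27241695 (plus strand) and ERF071 at chr2:19503703-19503952 (minus strand).
RAP2-3: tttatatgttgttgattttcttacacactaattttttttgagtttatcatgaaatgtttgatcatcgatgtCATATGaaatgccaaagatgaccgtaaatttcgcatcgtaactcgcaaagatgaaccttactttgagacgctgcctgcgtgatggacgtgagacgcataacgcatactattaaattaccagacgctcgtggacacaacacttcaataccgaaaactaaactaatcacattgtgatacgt
HRE1: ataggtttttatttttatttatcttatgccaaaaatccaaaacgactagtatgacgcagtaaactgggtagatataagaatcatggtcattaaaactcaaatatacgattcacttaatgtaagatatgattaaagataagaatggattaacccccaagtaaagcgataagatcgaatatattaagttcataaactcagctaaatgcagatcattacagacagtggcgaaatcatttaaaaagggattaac
ERF071: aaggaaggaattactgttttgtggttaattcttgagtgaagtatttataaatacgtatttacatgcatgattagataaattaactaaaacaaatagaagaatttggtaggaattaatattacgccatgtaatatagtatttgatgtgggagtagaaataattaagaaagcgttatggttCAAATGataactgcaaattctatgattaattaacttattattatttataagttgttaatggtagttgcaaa
A single E-box starts 179 bases before the start of RAP2-3 and another 71 bases before that of ERF071. The window before HRE1 has none. No GCC box (GCCGCC), dehydration-responsive core (CCGAC), G-box (CACGTG) or AC element (ACCNACC or ACCNAAC) was found on either strand in these 3 windows, which says only that those letters are not there.

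Other genes of the low-oxygen response lay on the same side. Of 12 such genes 9 were listed, all higher, where 66.1% of all listed genes were higher. They included ADH1 and PDC1, the enzymes of ethanol fermentation, the haemoglobin gene AHB1, and PCO1 and PCO2, the plant cysteine oxidases that mark group VII proteins for degradation when oxygen is present. ADH1 rose from 267.8 to 911.6 mean normalised reads (1.77 ± 0.23 on the log2 scale; edgeR adjusted p = 0.000177) and PDC1 from 56.5 to 408.4 (2.85 ± 0.21; 1.12e-05). AHB1 rose from 195.6 to 2225 (3.51 ± 0.15; edgeR adjusted p = 1.25e-06). PCO1 and PCO2 rose by 2.29 ± 0.11 and 2.27 ± 0.12 on the log2 scale (edgeR adjusted p = 1.95e-06 and 2.95e-06). The groups did not overlap in any of these 5 genes. The list was chosen with earlier results of these data known, and listed genes were selected on this same contrast. The count of low-oxygen genes is therefore a description and carries no test.

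**Figure D2:**
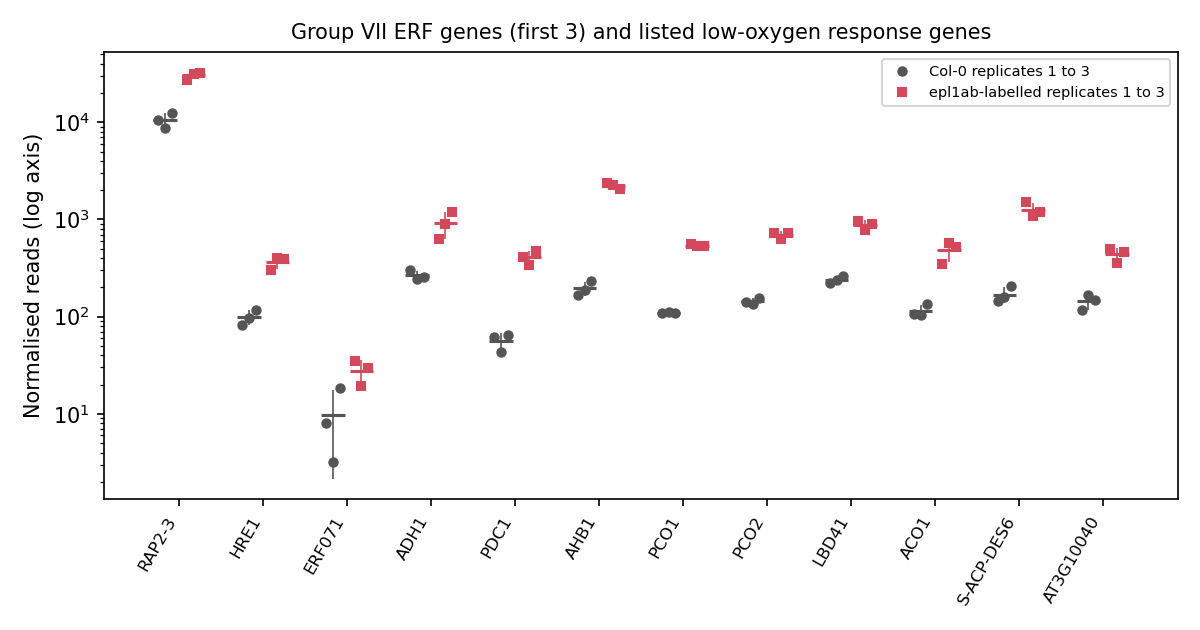
Normalised reads (log axis) of the 3 listed group VII ERF genes and the 9 listed low-oxygen response genes in each library. Grey circles are Col-0 and red squares epl1ab-labelled replicates 1 to 3 from left to right, bars are means and vertical lines SD (n = 3 per group). In every gene shown the epl1ab-labelled libraries lie above the Col-0 libraries, by the narrowest margin in ERF071, whose lowest epl1ab-labelled value is 19.3 and highest Col-0 value 18.3.

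RAP2-6, known from abscisic acid, jasmonate and wound responses, belongs to group X of the ERF family, as do the members ABR1, ERF109 and ERF114, named here after their values were seen. RAP2-6 had 38, 22.6 and 29.3 normalised reads in Col-0 and 134.2, 302.8 and 294.6 in the epl1ab-labelled libraries. All 3 epl1ab-labelled libraries exceeded Col-0, with replicates 2 and 3 above replicate 1. RAP2-6 rose 8.09-fold (3.02 ± 0.38 on the log2 scale; edgeR adjusted p = 0.000139), the highest rise among ERF members in the fit. Using replicate 1 alone for the epl1ab-labelled group, the log2 fold change was 2.15 (edgeR adjusted p = 0.000537). ERF114 rose by 1.35 ± 0.18 and ABR1, a repressor of abscisic acid responses, by 1.21 ± 0.21 on the log2 scale (edgeR adjusted p = 0.000175 and 0.00076). ERF109, which responds to reactive oxygen, had 0, 0 and 1.22 normalised reads in Col-0 and 5.19, 3.86 and 13.4 in the epl1ab-labelled libraries. The ratio of 21.1 has a 95% exact interval of 3.47 to 866, for counting error only. ABR1 and ERF109 both overlap annotated genes on the opposite strand.

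ERF055 and ERF062 belong to the group of DREB-type genes that also holds RAP2-13. ERF055, known as TRANSLUCENT GREEN and as an activator of aquaporin genes, had 512, 453.3 and 746.7 normalised reads in Col-0 and 2868, 3443 and 3306 in the epl1ab-labelled libraries. The lowest of the latter was well above the highest of the former. ERF055 rose 5.62-fold (2.49 ± 0.19 on the log2 scale; edgeR adjusted p = 1.33e-05), and it was the second most abundant ERF member per kilobase in the epl1ab-labelled group, at 1741 normalised reads. ERF062 had 25, 26.9 and 18.3 normalised reads against 80.5, 113.8 and 132.2. Those ranges were separate (2.21 ± 0.26 on the log2 scale; edgeR adjusted p = 0.000113). RAP2-13 rose by 1.13 ± 0.11 on the log2 scale, from 931 to 1094 normalised reads in Col-0 to between 2009 and 2490 (edgeR adjusted p = 3.66e-05).

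Among the drought and cold factors the direction was mixed. DREB1A, also called CBF3 and one of the tandem cold-response genes, had 133, 139.6 and 170.8 normalised reads in Col-0 and 86.6, 71.4 and 48.5 in the epl1ab-labelled libraries. It was lower in every epl1ab-labelled library, with a log2 fold change of -1.10 ± 0.24 (edgeR adjusted p = 0.00259), and it overlaps an annotated gene on the opposite strand. DREB2D and DREB2E, of the drought- and heat-responsive DREB2 branch, rose by 2.07 ± 0.21 and 1.91 ± 0.38 on the log2 scale (edgeR adjusted p = 5.29e-05 and 0.00164), and DREB2C, which is not a member, rose by 1.42 ± 0.17 (edgeR adjusted p = 0.000101). In a list of 8 DREB1 and DREB2 genes, which holds DREB1A and DREB2C but neither DREB2D nor DREB2E, 1 was listed higher (DREB2C), 1 lower (DREB1A) and 6 were not listed. RAP2-1, a small DREB-type protein with a repression motif, had 95, 97.8 and 126.9 normalised reads in Col-0 and 376.5, 389.7 and 389.1 in the epl1ab-labelled libraries, the last 3 close to each other (1.86 ± 0.15 on the log2 scale; edgeR adjusted p = 1.63e-05). ERF011 and RAP2-10 rose by 1.49 ± 0.26 and 1.03 ± 0.13 on the log2 scale (edgeR adjusted p = 0.000782 and 0.000131), the latter -0.08 with size factors from the listed genes.

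Group IX holds activators of defence genes under ethylene and jasmonate. In a fixed list of 15 of its genes, which leaves out the member ERF091, 4 were listed higher and 1 lower. ERF1B, the ERF1 that acts where both hormones meet, had 3, 10.7 and 15.9 normalised reads in Col-0 and 33.8, 33.8 and 31.0 in the epl1ab-labelled libraries. The groups were apart, and the log2 fold change was 1.76 ± 0.44 (edgeR adjusted p = 0.00535). ERF6, which acts under stress and restrains leaf growth, had 127, 155.8 and 264.7 normalised reads against 482.1, 351.1 and 502.1 (1.29 ± 0.29 on the log2 scale; edgeR adjusted p = 0.00309). ERF5, its close relative and not a member, rose by 1.11 ± 0.15 on the log2 scale (edgeR adjusted p = 0.000202). ERF105 had 134, 156.8 and 163.5 normalised reads in Col-0 and 262.3, 240.2 and 440.2 in the epl1ab-labelled libraries, a log2 fold change of 1.05 ± 0.25 (edgeR adjusted p = 0.00406) that became -0.07 (adjusted p = 0.813) with size factors from the listed genes. It too overlaps an annotated gene on the opposite strand. ERF096, a small activator of the same group, was the exception, with 9, 18.3 and 8.54 normalised reads in Col-0 and 2.60, 0 and 0 in the epl1ab-labelled libraries. The ratio of its levels was 13.5, with a 95% exact counting interval of 4.25 to 69.0.

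Group VIII holds repressors with an EAR motif, and 3 of 12 genes in a fixed list of them were listed, all higher. ERF9 had 120, 105.3 and 103.7 normalised reads in Col-0 and 290, 268.1 and 302.1 in the epl1ab-labelled libraries. It rose in a narrow range, with a log2 fold change of 1.39 ± 0.13 (edgeR adjusted p = 3.53e-05). ERF10 and ERF11, which are not members, rose by 3.03 ± 0.37 and 1.99 ± 0.22 on the log2 scale (edgeR adjusted p = 0.000134 and 7.16e-05). Of 17 genes for ethylene synthesis and signalling 2 were listed, both higher and both encoding ACC synthases, which make the ethylene precursor. ACS7 rose by 1.28 ± 0.21 and ACS8 by 1.51 ± 0.27 on the log2 scale (edgeR adjusted p = 0.000592 and 0.00102), and the receptors and EIN3-type factors among the other 15 are not analysed here. ACO1, an ACC oxidase that completes ethylene synthesis, was counted in the low-oxygen list and rose by 2.07 ± 0.22 (edgeR adjusted p = 6.23e-05). CRF3, a cytokinin response factor, rose by 1.36 ± 0.14 (edgeR adjusted p = 5.75e-05).

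Of the ERF members 4 are of the AP2 type with a pair of AP2 domains. AIL5, AIL7 and PLT1 belong to the PLETHORA group, which acts in embryos and meristems, and ADAP is close to WRINKLED1, the activator of fatty acid synthesis. AIL5 had 165, 185.8 and 151.3 normalised reads in Col-0 and 215.5, 539.1 and 941.4 in the epl1ab-labelled libraries. Replicate 1 was above all of Col-0 by a small margin, and replicates 2 and 3 were far above it. Its log2 fold change was 1.76 ± 0.48 (edgeR adjusted p = 0.00784), and 0.36 (edgeR adjusted p = 0.118) using epl1ab-labelled replicate 1 alone. AIL7 had 53, 58.0 and 41.5 normalised reads against 166.2, 278.7 and 319.7. Its rise was present in replicate 1 too, at 2.32 ± 0.28 (edgeR adjusted p = 0.000121) with all libraries and 1.70 (0.000619) with replicate 1 alone. PLT1, known from the root stem cell niche, had 12, 3.22 and 14.6 normalised reads against 24.2, 29.9 and 19.3. Its call (1.30 ± 0.45 on the log2 scale; edgeR adjusted p = 0.0244) was lost without Col-0 replicate 1 (0.0565), without epl1ab-labelled replicate 2 (0.0796) and with epl1ab-labelled replicate 1 alone (0.106). BBM, a further PLETHORA gene and not a member, had 23, 5.37 and 17.1 normalised reads in Col-0 and 15.6, 53.1 and 66.1 in the epl1ab-labelled libraries, with replicate 1 inside the Col-0 range. The summed seed markers showed the same order of the epl1ab-labelled libraries as AIL5, with 788.6 in replicate 1, 122934 in replicate 2 and 194418 in replicate 3, and their part in these values was not tested. This order is not particular to AIL5, and RAP2-3 and MYB59 among other members had it as well. ADAP rose evenly, from 262 to 307.4 normalised reads in Col-0 to between 657.9 and 763.2 (1.34 ± 0.12 on the log2 scale; edgeR adjusted p = 2.31e-05).

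The remaining ERF members were expressed at low levels. ERF013 and ERF027 rose by 2.03 ± 0.23 and 1.13 ± 0.28 on the log2 scale (edgeR adjusted p = 7.59e-05 and 0.00483). ERF022 had 2, 2.15 and 2.44 normalised reads in Col-0 and 14.7, 10.6 and 17.6 in the epl1ab-labelled libraries, without overlap (2.66 ± 0.41; edgeR adjusted p = 0.000427). A further pair of ERF genes had no read in Col-0. ERF091 was at 0 in every Col-0 library and at 3.46, 1.93 and 7.53 normalised reads in the epl1ab-labelled libraries, and ERF016 at 2.60, 5.79 and 3.35. With 3 counts over Col-0 taken as the floor, they were at least 4.06-fold and 3.52-fold higher. ERF025 is the ERF gene whose groups overlapped, with 19, 16.1 and 8.54 normalised reads in Col-0 and 18.2, 38.6 and 45.2 in the epl1ab-labelled libraries. Its call (1.20 ± 0.43 on the log2 scale; edgeR adjusted p = 0.0274) was lost when any of 4 libraries was left out (adjusted p 0.0628 to 0.0926) and was 0.30 (0.62) with epl1ab-labelled replicate 1 alone.

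Among the MYB genes the largest rises were in genes barely read in Col-0. MYB21 and MYB24 drive stamen filament growth under jasmonate. MYB21 was at 0 in all Col-0 libraries and at 10.4, 18.3 and 9.21 normalised reads in the epl1ab-labelled libraries, at least 11.4-fold higher. MYB24 was at 0 in Col-0 and at 6.06, 0.96 and 5.02, at least 3.79-fold higher. Both overlap an annotated gene on the opposite strand. Of 14 anther and flower factors these were the 2 listed. The flower markers were higher in all 3 epl1ab-labelled libraries too, with summed levels of 796.4, 599.9 and 859.4 against 132, 124.6 and 118.3 in Col-0, and their part in these values was not tested. MYB27 had 2, 1.07 and 0 normalised reads in Col-0 and 24.2, 43.4 and 59.4 in the epl1ab-labelled libraries. From 3 reads in Col-0 and 144 in the epl1ab-labelled group the ratio was 39.0, with a 95% exact counting interval of 13.1 to 191. Without Col-0 replicate 1, its fitted log2 fold change went from 5.14 to 5.94, and it was 4.33 using epl1ab-labelled replicate 1 alone.

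MYB15 activates lignin synthesis in defence and acts on the cold response. It had 84, 94.5 and 129.3 normalised reads in Col-0 and 455.3, 444.6 and 493.7 in the epl1ab-labelled libraries. The groups were wide apart (2.18 ± 0.18 on the log2 scale; edgeR adjusted p = 1.86e-05). MYB59, known from root growth and potassium transport, was the most abundant MYB member per kilobase. It had 1561, 1482 and 1674 normalised reads in Col-0 and 5888, 6764 and 7159 in the epl1ab-labelled libraries, with no overlap. The rise of MYB59 was 4.2-fold (2.07 ± 0.10 on the log2 scale; edgeR adjusted p = 1.87e-06), the lowest adjusted p of any member. MYB87 had 10, 7.52 and 12.2 normalised reads against 48.5, 53.1 and 71.1, again with separate ranges (2.54 ± 0.28 on the log2 scale; edgeR adjusted p = 7.91e-05). MYB86 rose from 71, 58.0 and 57.3 to 183.5, 244 and 251.9 (1.86 ± 0.19; edgeR adjusted p = 4.61e-05).

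MYB factors of the secondary wall were in part higher. Of 13 such factors 4 were listed, all higher, including the members ATMYB63, an activator of lignin synthesis, and MYB42, a close relative of the lignin activator MYB85. ATMYB63 had 66, 49.4 and 64.7 normalised reads in Col-0 and 190.4, 218 and 222.6 in the epl1ab-labelled libraries (1.81 ± 0.17 on the log2 scale; edgeR adjusted p = 3.42e-05). MYB42 had 10, 9.67 and 12.2 against 30.3, 51.1 and 47.7 (2.01 ± 0.30; edgeR adjusted p = 0.000365). Neither gene's groups overlapped. ATMYB54 and ATMYB69, which are not members, rose by 1.10 ± 0.32 and 3.02 ± 0.41 on the log2 scale (edgeR adjusted p = 0.0103 and 0.000214), ATMYB54 at -0.02 with size factors from the listed genes. Of 14 other secondary wall genes 3 were listed, all higher: PAL1 and PAL2, which open the phenylpropanoid pathway, and CCR1 of lignin synthesis, with log2 fold changes of 1.14 ± 0.08, 1.08 ± 0.07 and 1.03 ± 0.08 (edgeR adjusted p = 8.06e-06, 5.15e-06 and 1.04e-05); with those size factors PAL2 was at -0.03 and CCR1 at -0.08. MYB7, a repressor of phenylpropanoid genes, rose by 1.14 ± 0.15 (edgeR adjusted p = 0.000219).

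Among 17 MYB genes of stress responses 6 were listed higher and 1 lower. The members among them were MYB15, MYB14, MYB108 and AtMYB78. MYB14, known from cold tolerance, had 42, 29.0 and 32.9 normalised reads in Col-0 and 83.1, 117.7 and 103.8 in the epl1ab-labelled libraries (1.54 ± 0.22 on the log2 scale; edgeR adjusted p = 0.000318). MYB108, or BOS1, acts in resistance to Botrytis and in anther maturation, and had 16, 16.1 and 13.4 against 34.6, 33.8 and 42.7 (1.28 ± 0.23; edgeR adjusted p = 0.000929). Neither overlapped between groups. AtMYB78, with too few reads for the fit, had 6, 3.22 and 2.44 against 15.6, 9.65 and 15.1, also without overlap. MYB112, not a member, rose by 2.98 ± 0.28 on the log2 scale (edgeR adjusted p = 3.47e-05), whereas AtMYB47, also not a member, fell by 3.42 ± 0.26 (edgeR adjusted p = 1.22e-05).

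AtMYB9, known for suberin in the seed coat, had 50, 47.3 and 39.0 normalised reads in Col-0 and 83.1, 92.6 and 123.8 in the epl1ab-labelled libraries. It rose in all of them, by 1.13 ± 0.22 on the log2 scale (edgeR adjusted p = 0.0014), and overlaps an annotated gene on the opposite strand. Its partner in that role, MYB107, is not a member and rose by 2.11 ± 0.29 (edgeR adjusted p = 0.000252). MYB56, or BRAVO, which holds root stem cells in quiescence, had 47, 52.6 and 34.2 normalised reads against 124.6, 161.1 and 174.1, a separate and higher range (1.77 ± 0.22; edgeR adjusted p = 0.000147). MYB105, or LOF2, a factor of organ boundaries, had 4, 2.15 and 3.66 against 8.66, 9.65 and 19.3 and was not in the fit.

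MYB29 was the MYB member that fell. It activates aliphatic glucosinolate synthesis together with MYB28 and MYB76. MYB29 had 892, 1283 and 863.8 normalised reads in Col-0 and 472.6, 478.4 and 468.6 in the epl1ab-labelled libraries. The epl1ab-labelled values were close to each other and below all of Col-0 (-1.10 ± 0.16 on the log2 scale; edgeR adjusted p = 0.000358). It was the one listed gene of 6 glucosinolate MYB factors. Among 19 enzymes of glucosinolate synthesis 3 were listed, all higher: MAM3 and CYP79F2 of the aliphatic pathway and FMOGS-OX1, which modifies its side chains. MAM3 rose by 1.90 ± 0.17, FMOGS-OX1 by 1.40 ± 0.08 and CYP79F2 by 1.02 ± 0.07 on the log2 scale (edgeR adjusted p = 2.41e-05, 3.71e-06 and 6.21e-06), CYP79F2 at -0.09 with size factors from the listed genes. The direction of MYB29 was opposite to that of MAM3 and FMOGS-OX1.

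The bHLH genes were the family with the largest share listed lower, at 38.5%, which is near the 33.9% of all listed genes. By the authors' deposited tables, the lower members had a median of -1.77 on the log2 scale and the higher members one of 1.65. BHLH100 and BHLH101 belong to the small Ib group of bHLH factors, which iron deficiency induces and which pair with FIT to activate iron uptake. BHLH100 had 119, 113.9 and 178.1 normalised reads in Col-0 and 9.52, 8.68 and 10.04 in the epl1ab-labelled libraries. The epl1ab-labelled libraries were close together and far under Col-0. BHLH100 fell 14.3-fold, with a log2 fold change of -3.84 ± 0.27 (edgeR adjusted p = 8.23e-06).

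BHLH101 had 56, 70.9 and 58.6 normalised reads in Col-0 and 12.1, 10.6 and 13.4 in the epl1ab-labelled libraries. It was lower in every one of them, 5.08-fold in the fit (-2.34 ± 0.22 on the log2 scale; edgeR adjusted p = 3.41e-05), and it overlaps an annotated gene on the opposite strand. The regions before both genes are shown because they fell together. Each is again the 250 bases before the annotated gene start in RefSeq TAIR10.1, on the strand of the gene, with G-box and E-box letters in capitals. BHLH100 is at chr2:17199455-17199704 and BHLH101 at chr5:1139634-1139883, both on the minus strand.
BHLH100: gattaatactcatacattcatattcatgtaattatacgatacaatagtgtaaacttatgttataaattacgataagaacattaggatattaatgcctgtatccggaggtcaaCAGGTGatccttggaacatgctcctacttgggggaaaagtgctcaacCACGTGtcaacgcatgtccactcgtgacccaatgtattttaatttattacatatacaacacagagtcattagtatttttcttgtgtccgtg
BHLH101: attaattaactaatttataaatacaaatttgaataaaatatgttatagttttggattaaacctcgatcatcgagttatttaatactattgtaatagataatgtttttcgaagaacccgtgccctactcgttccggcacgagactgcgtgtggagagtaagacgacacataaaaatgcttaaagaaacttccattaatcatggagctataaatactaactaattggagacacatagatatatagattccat
BHLH100 has an E-box 138 bases and a G-box 91 bases before the gene start, the G-box being an E-box as well. It also has W-box cores (TTGAC, not in capitals) at 143 and 86 bases. BHLH101 has none of the 6 motifs searched.

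FIT, the central iron bHLH and not a member, went the other way, from 191, 247.1 and 190.3 to 319.4, 502.5 and 553.1 normalised reads (1.13 ± 0.23 on the log2 scale; edgeR adjusted p = 0.00185; -0.01 with size factors from the listed genes). Of 11 iron bHLH genes these were the 3 listed, with 1 higher and 2 lower. Among 16 other iron response genes 3 were listed lower and 1 higher. IRT1, the main iron transporter of the root surface, had 111, 103.1 and 159.8 normalised reads in Col-0 and 27.7, 8.68 and 45.2 in the epl1ab-labelled libraries, with no overlap (-2.17 ± 0.48 on the log2 scale; edgeR adjusted p = 0.00297). AT2G30766, a further gene of this list, fell by 1.63 ± 0.17 on the log2 scale (edgeR adjusted p = 5.77e-05), and CYP82C4 had 7, 7.52 and 8.54 normalised reads in Col-0 against 1.73, 0 and 0. F6'H1, which makes iron-mobilising coumarins, rose by 1.25 ± 0.31 (edgeR adjusted p = 0.00491).

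**Figure D3:**
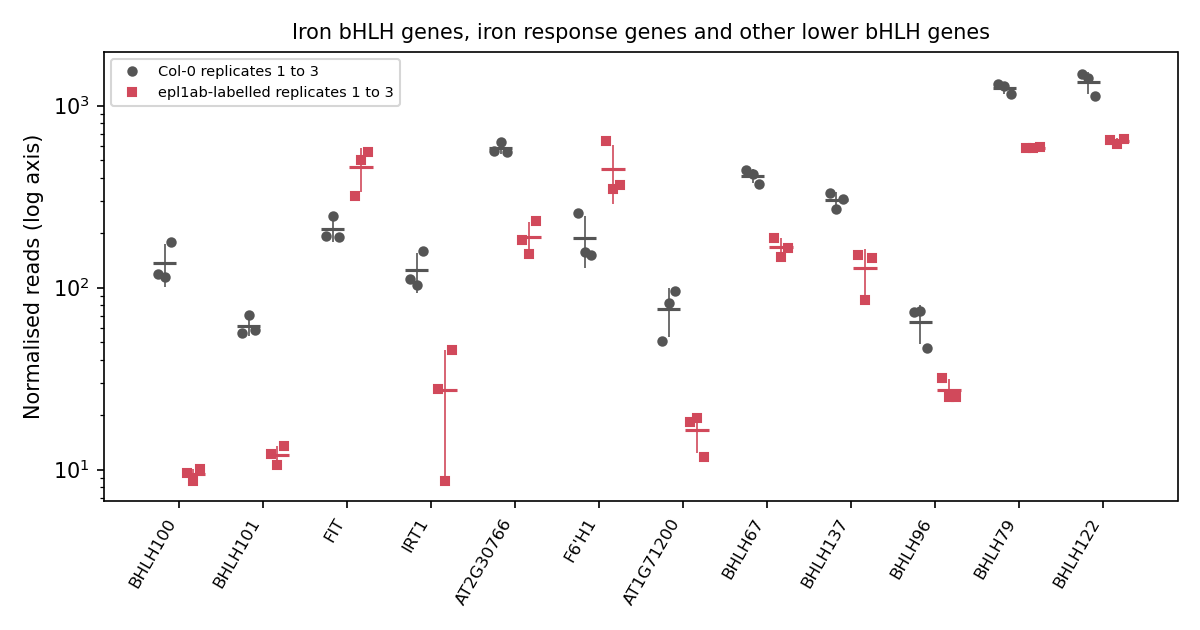
Normalised reads (log axis) of BHLH100, BHLH101, 4 iron response genes that are not members (FIT, IRT1, AT2G30766 and F6'H1) and 6 further bHLH members listed lower, in each library. Grey circles are Col-0 and red squares epl1ab-labelled replicates 1 to 3 from left to right, bars are means and vertical lines SD (n = 3 per group). BHLH100 drops from between 113.9 and 178.1 to between 8.68 and 10.04, whereas FIT and F6'H1 are higher in the epl1ab-labelled libraries, FIT at -0.01 in log2 fold change with size factors from the listed genes.

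BHLH28, or MYC5, acts with MYC2 in jasmonate responses and stamens and had the most negative value of all members. Its level was 17, 26.9 and 26.8 normalised reads in Col-0 and 0, 0.96 and 0 in the epl1ab-labelled libraries. From 64 reads in Col-0 to 1 in the epl1ab-labelled group the ratio was 78.8, with a 95% exact counting interval of 13.6 to 3160. Its fitted log2 fold change of -5.82 ± 0.66 (edgeR adjusted p = 8.47e-05) became -7.59 without epl1ab-labelled replicate 2, which held the 1 read, and -7.52 using epl1ab-labelled replicate 1 alone. It was the listed gene of 4 MYC-type factors, and BHLH14, a repressor of jasmonate responses, moved the other way. BHLH14 had 104, 66.6 and 102.5 normalised reads against 406.8, 316.4 and 289.5, without overlap (1.89 ± 0.22 on the log2 scale; edgeR adjusted p = 0.000107).

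Other bHLH genes fell by less. BHLH67, a close relative of stomatal lineage factors, had 443, 423.2 and 369.7 normalised reads in Col-0 and 187, 146.6 and 164.8 in the epl1ab-labelled libraries. It was lower throughout (-1.31 ± 0.14 on the log2 scale; edgeR adjusted p = 6.89e-05). BHLH96 of the same subgroup fell by 1.24 ± 0.25 (edgeR adjusted p = 0.00192), whereas BHLH99, also of that subgroup, rose by 1.48 ± 0.25 (edgeR adjusted p = 0.000782). None of 8 stomatal factors such as SPCH, MUTE and FAMA, of 6 other stomatal lineage genes or of 5 guard cell markers was listed. AT1G71200 had 51, 82.7 and 95.2 normalised reads in Col-0 and 18.2, 19.3 and 11.7 in the epl1ab-labelled libraries, a separate and lower range (-2.21 ± 0.32 on the log2 scale; edgeR adjusted p = 0.000312).

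BHLH122, a factor of flowering time and of guard cell opening, was abundant, with 1484, 1417 and 1133 normalised reads in Col-0 and 646.6, 617.3 and 656.1 in the epl1ab-labelled libraries. BHLH79 had 1321, 1275 and 1153 against 586, 583.5 and 589.9. Both were lower in all epl1ab-labelled libraries, with log2 fold changes of -1.07 ± 0.12 and -1.09 ± 0.09 (edgeR adjusted p = 7.29e-05 and 1.58e-05). BHLH137 fell by 1.25 ± 0.23 (edgeR adjusted p = 0.0011). AT5G01305 had 5, 5.37 and 9.76 normalised reads in Col-0 and 0.87, 0.96 and 0.84 in the epl1ab-labelled libraries, and the ratio of these levels was 7.39, with a 95% exact counting interval of 2.16 to 39.2.

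Of the bHLH genes that rose, BHLH109, known from somatic embryogenesis, changed most. It had 14, 11.8 and 15.9 normalised reads in Col-0 and 74.4, 188.1 and 332.2 in the epl1ab-labelled libraries. All epl1ab-labelled libraries were above Col-0, and they were far from each other. The rise was 14.2-fold (3.83 ± 0.59 on the log2 scale; edgeR adjusted p = 0.00042), 3.23 on the log2 scale without epl1ab-labelled replicate 3, and 2.42 (edgeR adjusted p = 0.000517) with epl1ab-labelled replicate 1 alone. As with AIL5, the order of the 3 libraries was that of the summed seed markers, whose part in the value was not tested. Other members, such as RAP2-3, MYB59, BHLH66 and BHLH125, had this order too.

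AT2G43140, which the table describes as a bHLH factor, had 116, 128.9 and 173.2 normalised reads in Col-0 and 1002, 904.7 and 950.6 in the epl1ab-labelled libraries. The groups were wide apart, with a 6.84-fold rise (2.77 ± 0.17 on the log2 scale; edgeR adjusted p = 4.72e-06), and the gene overlaps another on the opposite strand. BHLH66, or LRL1, which promotes root hair growth, had 353, 287.9 and 386.7 against 1195, 1404 and 1548. It rose by 2.01 ± 0.15 on the log2 scale (edgeR adjusted p = 1.13e-05). Of 15 further trichome and root hair factors 5 were listed higher, among them WER, BHLH83 (RHD6) and BHLH86, and GL1, which specifies trichomes, was listed lower. GL1 fell by 1.86 ± 0.17 (edgeR adjusted p = 2.62e-05), and WER, BHLH83 and BHLH86 rose by 1.21 ± 0.22, 1.30 ± 0.38 and 1.97 ± 0.34 (edgeR adjusted p = 0.00099, 0.0109 and 0.000813). Of 8 root markers BGLU23 and NRT2.1 were listed, both higher, at 169737, 246622 and 260414 summed normalised reads against 93650, 100256 and 109634 in Col-0. Nearly all of this sum was BGLU23, at 169605, 246473 and 260326 against 93557, 100241 and 109617. NRT2.1 overlapped between groups, at 131.6, 149.5 and 87.9 against 93, 15.0 and 17.1. The part of these markers in the values above was not tested.

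BHLH125 had 195, 265.3 and 240.3 normalised reads in Col-0 and 700.3, 959.7 and 1089 in the epl1ab-labelled libraries. The rise was clear of the spread in both groups (1.97 ± 0.20 on the log2 scale; edgeR adjusted p = 4.66e-05). AT4G25400 and BHLH126 are adjacent in the genome, the one such pair among the members, and both rose, by 1.70 ± 0.28 and 1.02 ± 0.24 on the log2 scale (edgeR adjusted p = 0.000579 and 0.00409). With epl1ab-labelled replicate 1 alone AT4G25400 was at 0.99 (edgeR adjusted p = 0.00337) and BHLH126 at 0.64 (0.082), and with size factors from the listed genes BHLH126 was at -0.10. BHLH78, or CIB2, a flowering factor that works with cryptochrome, rose by 1.5 ± 0.15 (edgeR adjusted p = 5.35e-05), and BHLH89, a factor of the anther tapetum, by 1.59 ± 0.26 (edgeR adjusted p = 0.000546). Of 11 light-signalling bHLH genes of the PIF type, UNE10 and HFR1 were listed, both higher and neither a member, at log2 fold changes of 1.19 ± 0.11 and 1.27 ± 0.12 (edgeR adjusted p = 2.83e-05 and 4.03e-05). The other higher bHLH members were AT5G51780, BHLH51, BHLH87, BHLH113 and BHLH61, whose log2 fold changes ran from 1.91 ± 0.22 for the first to 1.01 ± 0.16 for the last (edgeR adjusted p = 9.54e-05 and 0.000496). With size factors from the listed genes BHLH61 was at -0.09. AT2G22750 is the second member whose groups overlapped, with 3, 1.07 and 1.22 normalised reads in Col-0 and 2.60, 14.5 and 12.6 in the epl1ab-labelled libraries.

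The mean of epl1ab-labelled replicates 2 and 3 was more than 2-fold that of replicate 1 in 7 members, or 9.33%, against 8.52% of all listed genes. Of these 7, 6 were listed higher: AIL5, ERF025, RAP2-6, MYB27, BHLH109 and AT2G22750, and the other was BHLH28, where this rests on 1 read. With epl1ab-labelled replicate 1 as the only library of its group, the log2 fold change was 0.36 for AIL5 and 0.30 for ERF025, against 1.76 and 1.20 with all libraries. In that fit PLT1, BHLH113 and BHLH126 were at 1.29, 0.79 and 0.64, against 1.30, 1.20 and 1.02. BHLH100 stood at -3.82 and RAP2-3 at 1.37 there, against -3.84 and 1.52 with all libraries.

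**Figure D4:**
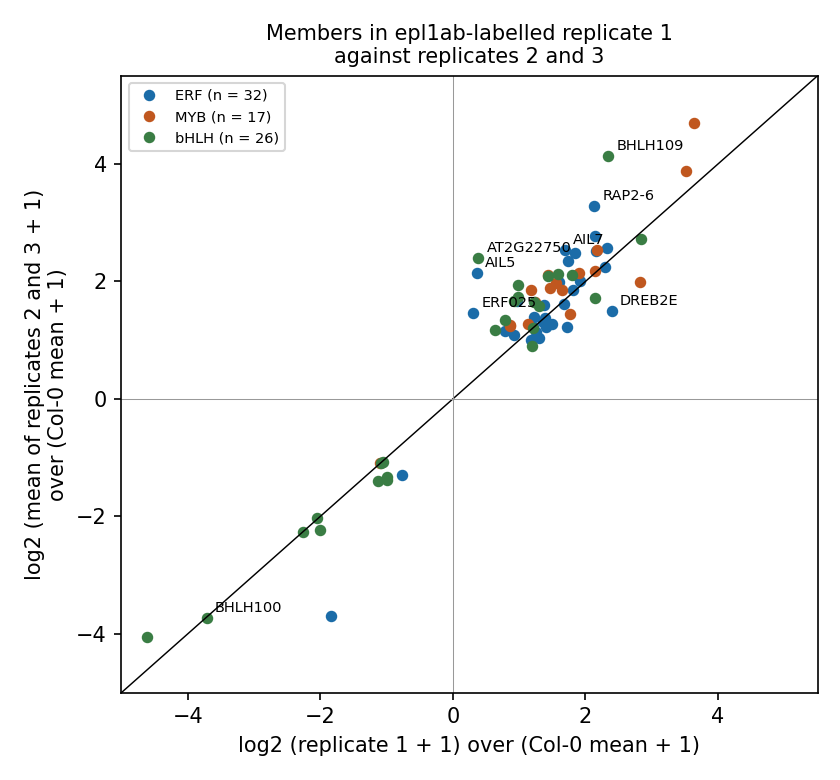
Log2 ratio of the mean of epl1ab-labelled replicates 2 and 3 to the Col-0 mean (vertical) against that of replicate 1 (horizontal), each with 1 added to both levels, for the 75 members. Points on the diagonal changed alike. AIL5 lies at 0.36 and 2.14, far above the line, and BHLH100 on it.

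The families differ in gene structure and position. A single exon was annotated in the longest transcript of 21 of 32 ERF, 0 of 17 MYB and 2 of 26 bHLH members, or 30.7% of all members against 23.1% of all listed genes. A directly neighbouring protein-coding gene was also listed for 21 members (28.0%, against 38.5% of all listed genes) and moved in the same direction for 11 (14.7%, against 26.4%). Of the 13 lower members 0 had a neighbour that was also lower, against 14.5% of all genes listed lower, and with 13 members 0 is not remarkable. By exact match, all windows of 50 bases, the read length, were unique in the genome for 71 members, and at least 98.8% were for the other 4. Copies that differ by a base or more were not counted, so reads shared with near-identical copies were not tested. In all, 13 members overlap an annotated gene on the opposite strand, those not yet named as such being DREB2E, ADAP and BHLH51.

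Motif letters in the 250 bases before each gene start, read on both strands, were counted as a description. The E-box CANNTG was present before 47 of 62 higher members (75.8%) and 9 of 13 lower members (69.2%), against 55.3% of all 27443 protein-coding genes and 57.9% of the listed genes. By family it was present before 65.6% of ERF, 88.2% of MYB and 76.9% of bHLH members. The G-box CACGTG, counted among the E-boxes too, preceded 3 of 13 lower members (BHLH100, BHLH122 and AT5G01305), against 8.61% of all genes listed lower. It preceded 5 of 62 higher members (8.06%), against 8.26% of all genes listed higher and 6.49% of all protein-coding genes. It was found before 5 of 26 bHLH and 0 of 17 MYB members. The dehydration-responsive core CCGAC preceded 7 of 32 ERF members (21.9%), among them AIL5, ERF9 and RAP2-10, against 12.0% of all genes. The GCC box GCCGCC preceded 2 of 32 (6.25%), DREB2D and ABR1, against 1.87%. The AC element, ACCNACC or ACCNAAC, preceded 3 of 17 MYB members (17.6%), against 19.3% of all genes, and the W-box core TTGAC 22 of 62 higher members (35.5%) and 7 of 13 lower members (53.8%), against 49.1% of all genes listed higher, 41.0% of those listed lower and 44.9% of all genes.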

How the data were processed

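The authors deposited 2 tables, 1 per direction. Raw read counts of each listed gene, its p-value, FDR and log2 fold change are what they hold, per the file headers. Per the labels' protocols, libraries were stranded total RNA after removal of plant ribosomal RNA. Per the submitters' processing notes the build is TAIR10 and the tool DESeq2. Aligner, counter and strand use: not given in the sources used here. No deposited log2 fold change is smaller in size than 1 and no deposited FDR is above 0.0495, so the tables are a selection, and adjusted p-values within them do not limit false calls among expressed genes at large.

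The authors' between-library scaling was solved for from the deposited fold changes by least squares over 1774 genes that had 200 reads or more per library (median absolute residual 0.000289). The factors were 1, 0.931 and 0.820 for Col-0 and 1.16, 1.04 and 1.20 for epl1ab-labelled replicates 1 to 3. Reads in listed genes were 9265086 to 10938542 per Col-0 library and 7355421 to 8625707 per epl1ab-labelled library, which is not library depth. The quasi-likelihood test of edgeR 4.0.16, under R 4.3.3 with limma 3.58.1, was run on the counts with these factors, no block and Benjamini-Hochberg adjustment over 4773 genes. The edgeR filter left out 557 genes. The step was tested on simulated data. An SE is the log2 fold change, without sign, divided by the root of F. P-values measure the spread between these libraries. Members and gene lists were chosen with earlier results of these data known. Genes named were, per family, the 4 with the largest change each way among members averaging at least 30 normalised reads, every member of a functional list with at least 3 listed genes, and members with under 10 Col-0 reads. RAP2-1, RAP2-10, RAP2-13, DREB2D, DREB2E, AIL5, PLT1, ADAP, ABR1, CRF3, MYB7, MYB56, BHLH28, BHLH14 and all others named outside this rule were chosen after their values were seen. The symbol of ABR1 is a date in the table and was restored from its description. Intervals and floors cover counting error only. Alternatives were TMM and DESeq2 1.42.0 size factors of the listed genes, the DESeq2 test, other filters, each replicate left out, epl1ab-labelled replicate 1 alone, and a replicate block. Python 3.11.15, pandas 2.3.3, numpy 2.4.6 and scipy 1.17.1 were used. Promoter windows were read from RefSeq TAIR10.1, and 98.57% of 5297 matched nuclear genes had the same start and end there.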

Additional observations from a re-analysis of the deposited data

How the results depend on the processing

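With DESeq2 size factors of the listed genes, which assume most listed genes unchanged, calls of higher members went from 54 to 25 (ERF 27 to 9, bHLH 15 to 8), and ERF105 reversed to -0.07 (adjusted p = 0.813), as did RAP2-10, BHLH126 and BHLH61 (-0.08 to -0.10). Lower ERF calls were 2 in place of 1 with those size factors, with TMM, with no filter on low counts and with the DESeq2 test; the last pair called all 62 higher and 13 lower members. Among 30 named genes in the fit, 7 others (ERF071, ERF1B, ERF6, ERF9, MYB14, MYB108 and AtMYB9, at log2 fold changes of 0.01 to 0.67) lost their call with those size factors, which lower every value by construction, and 1, ERF071, with TMM (1.07, adjusted p = 0.0714). Leaving out 1 library at a time gave 53 to 56 higher calls and 11 lower calls throughout; of the 30 named genes ERF071 alone lost its call, and of other members ERF025 and PLT1 did. Deviations of same-numbered libraries from their group means correlated at -0.397, -0.035 and -0.316, and those of differently numbered libraries at -0.318 to 0.384. Deviations from a mean of 3 libraries depend on one another, so these values cannot tell whether same-numbered libraries are paired. With the replicate block, calls were 52 higher and 11 lower, and none of the 30 lost its call, whereas ERF025 and PLT1 did. The shares called over all genes in the alternative fits are not given here, so these counts do not set the members apart. The 9 members with under 10 reads over Col-0 rest on few counts. Among them, ERF109 and MYB27 have counting intervals, which are wide, and ERF091, ERF016, MYB21 and MYB24 have floors only. Genes that missed the authors' thresholds are not analysed here, so counts of unlisted genes do not show that those genes were unchanged. The replicate spread rests on 3 libraries per group.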
